A study of Mus musculus with 12 samples.

Results

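The cytosolic translation initiation and elongation factor genes were taken as all protein-coding genes of the GENCODE M21 annotation whose symbols start with Eif1 to Eif6, Eef1 or Eef2, with pseudogenes left out. This gave 68 genes of 37614 in the annotation that the deposited counts could be assigned to. Of the 68, 64 passed the filter on low counts that left 15711 genes for testing. The 4 that did not pass were Eef1a2, the elongation factor isoform of muscle and neurons, with no count in any library, and Eif2s3y, Eif3j2 and Eif4e1b, at or below 0.0796 in every library on the CPM scale (gene counts relative to library size).

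RNA was sequenced from 12 mouse libraries in 4 groups of 3. The groups were haematopoietic stem cells (HSC) of the strain labelled Col1a1-MLL/ENL (MLL-ENL HSC), HSC of wild-type C57BL/6 mice (WT HSC), committed granulocyte and macrophage precursors of the same MLL/ENL strain (MLL-ENL preGM) and those precursors from wild-type C57BL/6 mice (WT preGM). The MLL and ENL proteins are joined in this fusion, which is found in acute leukaemia, and the design compares both cell types with and without its induction. Culture lasted 48 h in all 4 groups, with 1 µg/ml of doxycycline also for WT cells, in 10% serum and 3 cytokines, which were G-CSF and IL3, each at 5 ng/ml, and SCF at between 10 and 50 ng/ml. HSC had been sorted as lineage-negative, Sca1-positive, Kit-positive, CD48-negative and CD150-positive cells, and preGM as lineage-negative, Kit-positive cells without Sca1, CD150, CD105, CD41 or CD16/32. The labels give no age, and they do not say whether replicates are separate animals or separate cultures. The p-values therefore reflect the spread of these libraries only, which may be technical.

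Gene count totals were 18980508 to 23453501 for the MLL-ENL HSC libraries and 14529767 to 18158165 for the WT HSC libraries, and between 38466380 and 50326122 for MLL-ENL preGM and between 34741936 and 44493485 for WT preGM. A principal component analysis put the cell types apart on its first component (58.3% of the variance). On the next component (11%) MLL-ENL preGM replicate 1 lay at 75.1, with the other two at 23.9 and 25.8, and WT preGM replicate 2 lay at -60, with the other two at -10.9 and -5.5. Both libraries stood apart, and values with and without them are given below. They were picked on these same data. Fits without both keep replicates 2 and 3 of MLL-ENL preGM and replicates 1 and 3 of WT preGM. Leaving out the most deviant libraries narrows the spread, so adjusted p-values from such fits may be too low. Summed preGM and myeloid markers, such as Mpo and Elane, reached 12662 to 16105 CPM in MLL-ENL preGM and 27056 to 29865 CPM in WT preGM, against at most 264 CPM in MLL-ENL HSC and 417 CPM in WT HSC. Summed HSC markers, such as Hlf and Mecom, were at 82.5 to 211 CPM in MLL-ENL preGM and 38.2 to 45.8 CPM in WT preGM, against 779 to 847 CPM in MLL-ENL HSC and 555 to 622 CPM in WT HSC. Cd48, the antigen absent from the HSC gate, was at 5.67 CPM in MLL-ENL HSC and 111 CPM in WT HSC on average after the culture. The counts do not separate the transgene from the endogenous genes, and Kmt2a, which encodes MLL, was at 90.5 to 105 CPM in MLL-ENL HSC and 72.5 to 78.9 CPM in WT HSC, and at 31.2 to 39.8 CPM in MLL-ENL preGM and 17.6 to 28.3 CPM in WT preGM. Hoxa9, a well-known MLL fusion target, was at 36.1 to 45.3 CPM in MLL-ENL preGM and 8.75 to 10.1 CPM in WT preGM.

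Translation of most mRNAs starts when eIF2, loaded with GTP and the initiator tRNA, joins the small ribosomal subunit with eIF1, eIF1A, eIF3 and eIF5, while eIF4F binds the mRNA cap through eIF4E, bridges to the ribosome through eIF4G and unwinds the leader through eIF4A. eIF2B recharges eIF2 with GTP, and the eIF2 kinases block that step under stress by phosphorylating eIF2 alpha. During elongation eEF1A brings aminoacyl-tRNA to the ribosome, the eEF1B subunits recharge eEF1A, eEF2 moves the ribosome along and eIF5A helps at poor peptide bonds. The 4E-binding proteins hold eIF4E away from eIF4G, and eEF2 kinase inhibits eEF2. Stem cells of the blood are known for a low rate of protein synthesis compared with their committed progeny.

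The members together took 2.41 to 2.47% of all gene counts in MLL-ENL HSC and 2.26 to 2.43% in WT HSC. Their share was 2.71 to 3.06% in MLL-ENL preGM and 1.58 to 2.53% in WT preGM. WT preGM replicate 2 held the lowest share, and the other two WT preGM libraries, at 2.43 and 2.53%, lay at or just above the HSC range. The order of the groups depended on the scale: after TMM scaling, which sets libraries to a common level over most genes, the summed level of the members was 31870 ± 2571 CPM in MLL-ENL preGM and 18203 ± 391 CPM in MLL-ENL HSC, and 29918 ± 3777 CPM in WT preGM and 20270 ± 402 CPM in WT HSC (SD, n = 3 each). TMM factors were 0.6185 to 1.057 in preGM and 1.119 to 1.348 in HSC. All CPM values below are TMM-scaled.

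**Figure D1:**
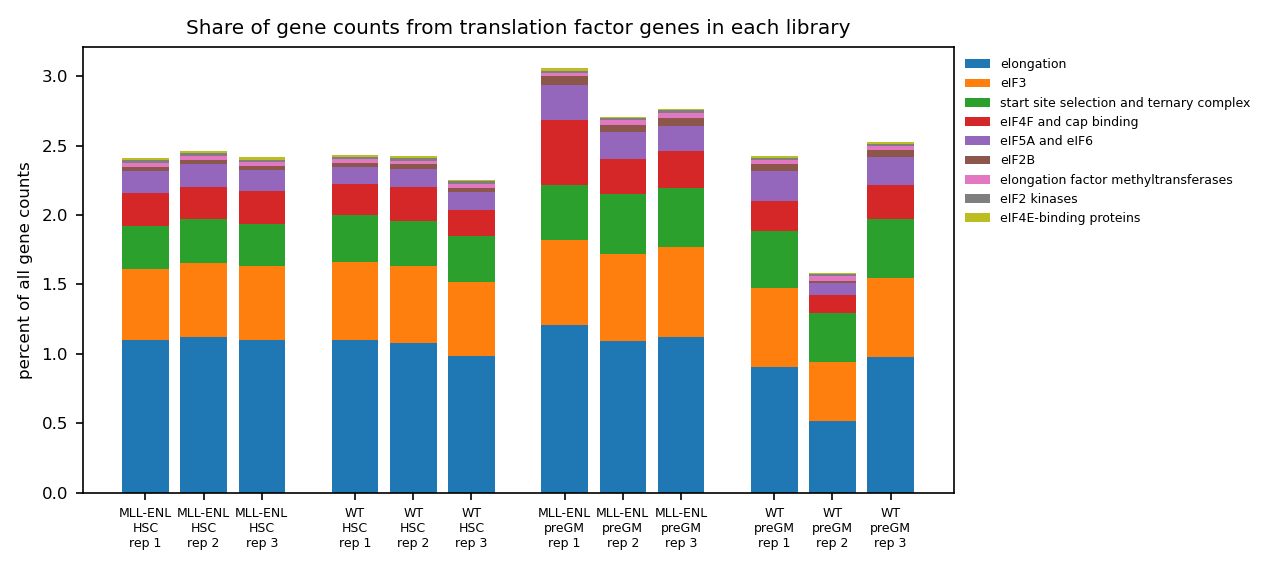
Stacked bars give the percent of all gene counts that fell on the members in each of the 12 libraries, split by role, before TMM scaling. The elongation factors made up the largest part in every library, and WT preGM replicate 2 held the smallest total at 1.58%.

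Per length, the most abundant member was Eef1a1, the main eEF1A gene, with a mean level of 1949 RPKM in MLL-ENL HSC, 2076 in WT HSC, 2705 in MLL-ENL preGM and 2017 in WT preGM. The next were Eif3k, a small eIF3 subunit, at 1143 RPKM over the 4 group means, Eef1g, the eEF1B gamma subunit, at 788, Eif5a at 667 and Eif1, which guards start codon choice, at 659. Eef2 was the tenth in this order at 245 RPKM, and Eif4e, the cap-binding subunit, came lower still at 133.

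The largest differences were between the cell types. With MLL-ENL, 33 members were higher and 3 lower in preGM than in HSC, so that 56.2% of the 64 tested members passed edgeR's quasi-likelihood test at a Benjamini-Hochberg adjusted p under 0.05 over all genes. Over all 15711 genes, 41.5% passed in that comparison, 20.4% higher and 21.1% lower. In WT, 25 members were higher and 5 lower in preGM, 46.9% of those tested, against 38.5% of all genes, 18.4% higher and 20.1% lower. The median log2 change of the members, preGM over HSC, was 0.80 with MLL-ENL and 0.56 in WT, beside 0.00 and -0.03 over all genes tested. The members were listed past the threshold in both genotypes in 22 cases, 21 of them higher in preGM and 1, Eef2k, lower. No member passed in opposite directions in the fit of all 12 libraries. Without the libraries that stood apart, Eif4ebp1 did so, lower in preGM with MLL-ENL and higher in WT. The share of all genes that passed in both genotypes was not computed. In at least 1 genotype, 68.8% of the members passed, against 53.9% of all genes. The libraries of the cell types did not overlap for 43 members higher in preGM with MLL-ENL, against 25.9% of all genes, and for 3 lower, against 28.9%. In WT this held for 26 higher, against 23.6%, and 8 lower, against 24.8%. Whether the cell-type difference itself differed between genotypes is tested further on.

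The call depended on the scaling. With library size in place of TMM, the median over all genes moved to -0.56 with MLL-ENL and -0.73 in WT, and 12 members were then higher and 9 lower with MLL-ENL, where 7.75% of all genes were higher and 35.1% lower. In WT 6 members were higher and 15 lower, where 7.57% of all genes were higher and 39.1% lower. This scaling shifts all genes alike, and the share of higher calls fell for both: among the members it was 57.1% with MLL-ENL and 28.6% in WT, against 91.7 and 83.3% with TMM, and among all genes called 18.1% and 16.2%, against 49.1 and 47.8% with TMM. The sign of the change turned for 12 members with MLL-ENL and 22 in WT, which left 40 and 28 of the 64 above 0. The members' median relative to that of all genes was 0.79 with library size and 0.80 with TMM in MLL-ENL, and 0.60 and 0.59 in WT. The changes below are therefore relative to most other genes. Mitochondrial transcripts, 1.83 to 3.12% of gene counts in MLL-ENL preGM and 2.71 to 4.09% in WT preGM, against 6.32 to 6.70% in MLL-ENL HSC and 5.40 to 5.92% in WT HSC, moved with the same contrast. So did intron counts per 100 gene counts, at 1.49 to 3.51 in MLL-ENL preGM and 1.24 to 2.02 in WT preGM, against 4.81 to 5.98 in MLL-ENL HSC and 3.73 to 4.11 in WT HSC, and MLL-ENL preGM replicate 1 held the 3.51. The part of either in the result was not tested.

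**Figure D2:**
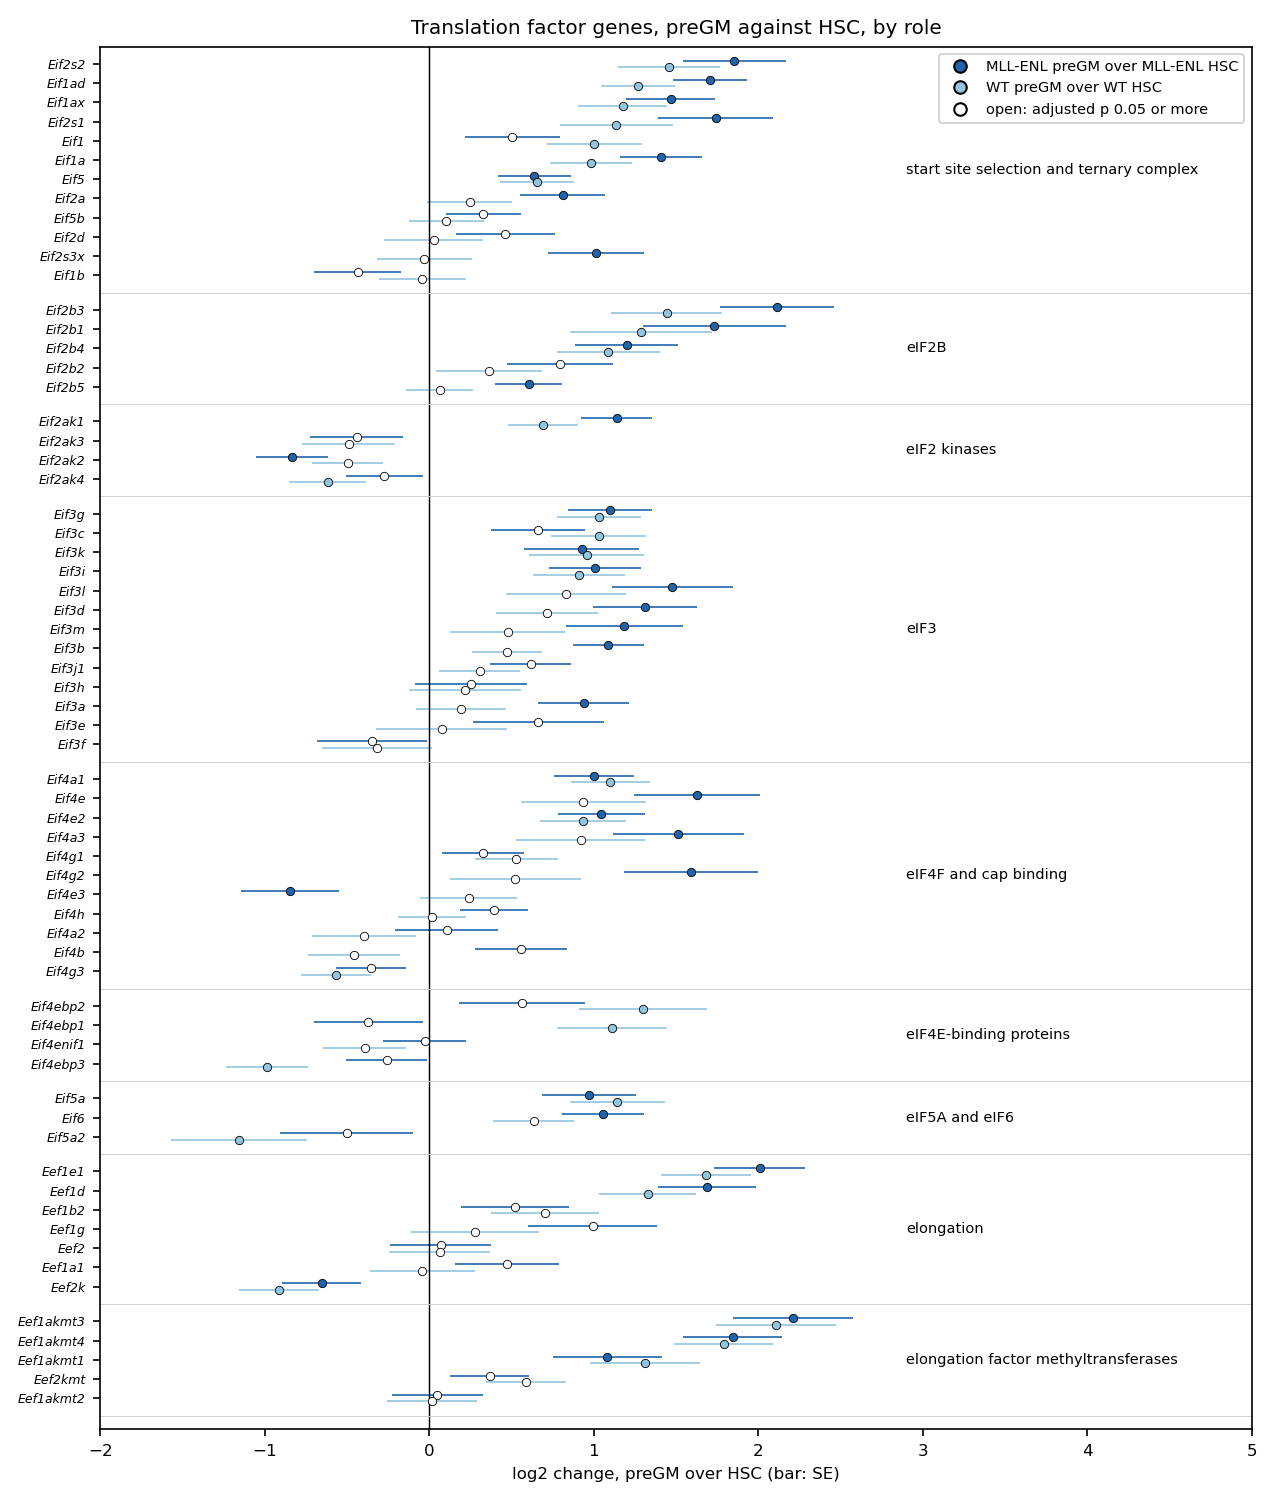
Points give the log2 change of each of the 64 tested members, preGM over HSC, in MLL-ENL (dark) and WT cells (light), with SE bars and grouped by role. Filled points passed the adjusted p threshold of 0.05. Most points lie right of 0, while Eef2k, Eif2ak2, Eif2ak3, Eif2ak4, Eif4g3 and Eif5a2 are among those left of it in both genotypes.

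The start-site and ternary complex genes were higher in preGM in 8 of 12 tested members with MLL-ENL and in 7 of 12 in WT, with none lower. Eif2s2, the beta subunit of eIF2, had 470, 1043 and 856 CPM in MLL-ENL preGM, against 225, 206 and 224 CPM in MLL-ENL HSC, and 878, 1320 and 942 CPM in WT preGM, against 345, 345 and 453 CPM in WT HSC. The groups did not overlap in either genotype. Its log2 change was 1.86 ± 0.31 with MLL-ENL (SE, edgeR adjusted p = 0.000282) and 1.46 ± 0.31 in WT (SE, edgeR adjusted p = 0.00173). Eif2s1, the alpha subunit that the stress kinases phosphorylate, had 524, 745 and 690 CPM in MLL-ENL preGM, against 192, 198 and 196 CPM in MLL-ENL HSC. In WT preGM it had 682, 248 and 773 CPM, against 279, 257 and 238 CPM in WT HSC, so that WT preGM replicate 2 alone lay within the HSC range. Its log2 changes were 1.74 ± 0.35 (SE, edgeR adjusted p = 0.00105) with MLL-ENL and 1.14 ± 0.34 (SE, edgeR adjusted p = 0.0156) in WT. Leaving out WT HSC replicate 3, WT preGM replicate 1 or WT preGM replicate 3 ended the WT call, at log2 changes of 0.86 to 1.09. Eif2s3x, the gamma subunit gene on chromosome X, had 339, 142 and 161 CPM in MLL-ENL preGM, against 107, 99.4 and 112 CPM in MLL-ENL HSC, while WT preGM held 118, 117 and 139 CPM and WT HSC 122, 128 and 132 CPM. In MLL-ENL cells it was higher in preGM by 1.01 on the log2 scale (SE 0.29, edgeR adjusted p = 0.0116) and by 0.52 without the libraries that stood apart, and its WT change was -0.03. Its Y-linked copy Eif2s3y was at 0 in all preGM libraries and at or below 0.0615 CPM in HSC.

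Eif1ax and Eif1a, which encode eIF1A, and Eif1ad, an eIF1A domain protein, were higher in preGM in both genotypes. Eif1ad had 212, 279 and 256 CPM in MLL-ENL preGM, against 75.6, 79.2 and 74.5 CPM in MLL-ENL HSC, and 259, 263 and 244 CPM in WT preGM, against 121, 94.3 and 102 CPM in WT HSC. No preGM library overlapped the HSC libraries, and the log2 changes were 1.71 ± 0.23 with MLL-ENL (SE, edgeR adjusted p = 3.26e-05) and 1.27 ± 0.22 in WT (SE, edgeR adjusted p = 0.000369). Eif1ax changed by 1.47 and 1.18 on the log2 scale in MLL-ENL and WT cells. Eif5, the GTPase activator of eIF2, changed by 0.64 and 0.66, and the MLL-ENL call ended without any of the 3 MLL-ENL HSC libraries, WT HSC replicate 3 or MLL-ENL preGM replicate 3, and the WT call without any of the 3 WT HSC libraries. Eif1 was higher in WT preGM, where it had 1813, 1967 and 1588 CPM, against 864, 849 and 963 CPM in WT HSC (log2 change 1.00, SE 0.29, edgeR adjusted p = 0.0123). In MLL-ENL preGM, Eif1 stood at 782, 1540 and 1449 CPM, with the lowest value in replicate 1, and at 848, 947 and 862 CPM in MLL-ENL HSC. Without MLL-ENL preGM replicate 1 the log2 change was 0.76 (edgeR adjusted p = 0.00636), and it was 0.51 with that library. Eif5b, the factor that joins the ribosomal subunits, did not pass in either genotype, at 0.33 and 0.10.

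Of the 5 subunit genes of eIF2B, 4 were higher in preGM with MLL-ENL and 3 in WT. Eif2b3, the gamma subunit, had 163, 198 and 205 CPM in MLL-ENL preGM, against 43.9, 41 and 46 CPM in MLL-ENL HSC, and 194, 67.4 and 204 CPM in WT preGM, against 56.6, 69.8 and 45 CPM in WT HSC. The MLL-ENL groups lay far apart, while WT preGM replicate 2 lay among the WT HSC libraries. The log2 changes of Eif2b3 were 2.11 ± 0.34 with MLL-ENL (SE, edgeR adjusted p = 0.0002) and 1.44 ± 0.34 in WT (SE, edgeR adjusted p = 0.0033). Eif2b1, the alpha subunit, had 239, 42.9 and 238 CPM in WT preGM, against 64.4, 79 and 69.5 CPM in WT HSC, so that replicate 2 lay below all HSC libraries while the other preGM libraries lay above them. Its WT log2 change of 1.29 became 1.76 without the libraries that stood apart, and the call was lost without WT preGM replicate 1 or 3 or any WT HSC library. In MLL-ENL cells it changed by 1.73 (SE 0.44, edgeR adjusted p = 0.00521). Eif2b5, the catalytic epsilon subunit, had 53.4, 46 and 60.3 CPM in MLL-ENL preGM, against 37.9, 33.4 and 33.8 CPM in MLL-ENL HSC, and its log2 change was 0.60 ± 0.20 (SE, edgeR adjusted p = 0.026). That call was lost without any of the 3 MLL-ENL HSC libraries or MLL-ENL preGM replicate 3, and the WT change of Eif2b5 was 0.06.

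The 4 eIF2 kinases did not move together. Eif2ak1 (HRI), the kinase that answers haem shortage, had 116, 150 and 150 CPM in MLL-ENL preGM, against 60.9, 64.2 and 63.3 CPM in MLL-ENL HSC, and its log2 change was 1.14 ± 0.22 (SE, edgeR adjusted p = 0.000669). In WT it changed by 0.69 ± 0.21 (SE, edgeR adjusted p = 0.0178), a call that ended without WT HSC replicate 1 or 2, or without WT preGM replicate 1 or 3. Eif2ak2 (PKR), the kinase for double-stranded RNA, had 32.4, 25.1 and 32.2 CPM in MLL-ENL preGM, against 52.2, 62.9 and 44.9 CPM in MLL-ENL HSC, and fell by 0.83 on the log2 scale (SE 0.22, edgeR adjusted p = 0.00639). In WT, Eif2ak2 changed by -0.50 (edgeR adjusted p = 0.0816), and the WT libraries did not overlap, with 36.2, 27 and 32.2 CPM in WT preGM and 43.1, 46.4 and 45.1 CPM in WT HSC. Eif2ak4 (GCN2), the amino acid sensor, fell by 0.62 in WT (SE 0.24, edgeR adjusted p = 0.0493), and leaving out any 1 library ended that call, other than MLL-ENL HSC replicate 2, MLL-ENL preGM replicate 1 and WT preGM replicate 2. Eif2ak3 (PERK), the kinase of the endoplasmic reticulum, had 4.55 to 9.48 CPM over all libraries and changed by -0.44 and -0.49 without passing.

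Of 13 tested eIF3 subunit genes, 8 were higher in preGM with MLL-ENL and 4 in WT, and none was lower. Eif3b, a core subunit, had 173, 193 and 215 CPM in MLL-ENL preGM, against 86.6, 93.8 and 92.8 CPM in MLL-ENL HSC, and changed by 1.09 ± 0.22 (SE, edgeR adjusted p = 0.000951). In WT it changed by 0.47 (edgeR adjusted p = 0.0909), with 176, 210 and 176 CPM in WT preGM and 134, 142 and 129 CPM in WT HSC, which did not overlap. Eif3a, the largest subunit, had 706, 365 and 479 CPM in MLL-ENL preGM, against 229, 267 and 312 CPM in MLL-ENL HSC, and its log2 change was 0.94 (edgeR adjusted p = 0.0126), lost without MLL-ENL HSC replicate 1. In WT preGM Eif3a stood at 452, 518 and 486 CPM, and at 432, 452 and 390 CPM in WT HSC, a change of 0.19. Eif3e had 856, 211 and 930 CPM in WT preGM, against 697, 612 and 587 CPM in WT HSC, and its change was 0.08 with replicate 2 and 0.51 without the libraries that stood apart. Eif3k passed in both genotypes at 0.93 and 0.96, but its calls were fragile. The MLL-ENL call ended without any 1 of 9 libraries, all but MLL-ENL preGM replicate 1 and WT preGM replicates 2 and 3, and the WT call without any 1 of 8, the HSC libraries and WT preGM replicates 1 and 2.

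Of 11 tested genes for eIF4F and its partners, 5 were higher and 1 lower in preGM with MLL-ENL, and 2 were higher and 1 lower in WT. Eif4a1, the main eIF4A helicase, had 325, 392 and 365 CPM in MLL-ENL preGM, against 193, 173 and 175 CPM in MLL-ENL HSC, and 385, 247 and 362 CPM in WT preGM, against 159, 162 and 141 CPM in WT HSC. It changed by 1.00 ± 0.24 with MLL-ENL (SE, edgeR adjusted p = 0.004) and by 1.10 ± 0.24 in WT (SE, edgeR adjusted p = 0.00219). Its paralog Eif4a2 changed by 0.11 and -0.40, without passing. Within each library, and so independent of scaling between libraries, the length-corrected ratio of Eif4a1 to Eif4a2 was 1.76 ± 0.641 in MLL-ENL preGM and 0.876 ± 0.0557 in MLL-ENL HSC, and 2.73 ± 0.662 in WT preGM and 0.913 ± 0.0992 in WT HSC (SD, n = 3 each). MLL-ENL preGM replicate 1, at 1.07, was the preGM library nearest to the HSC values, whose highest was 1.02, so the preGM and HSC libraries did not overlap.

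Eif4e had 585, 649 and 657 CPM in MLL-ENL preGM, against 208, 211 and 194 CPM in MLL-ENL HSC, and its log2 change was 1.63 ± 0.38 (SE, edgeR adjusted p = 0.00342). In WT preGM it had 572, 157 and 641 CPM, against 251, 264 and 201 CPM in WT HSC. Replicate 2 lay below every HSC library, and the WT change of 0.94 (edgeR adjusted p = 0.0613) became 1.35 (edgeR adjusted p = 0.000115) without it. Among the scaffold genes, Eif4g1 did not pass (0.33 and 0.53), and Eif4g3 fell in WT preGM by 0.57 on the log2 scale (edgeR adjusted p = 0.0462), a call that ended without any 1 of 10 libraries, all but MLL-ENL preGM replicate 1 and WT preGM replicate 2. Eif4g2, whose product lacks the eIF4E-binding part, had 1760, 455 and 528 CPM in MLL-ENL preGM, against 284, 293 and 332 CPM in MLL-ENL HSC. Its log2 change was 1.59 with replicate 1 and 0.71 without the libraries that stood apart (edgeR adjusted p = 6.7e-05), and in WT it changed by 0.52 (edgeR adjusted p = 0.323). Without MLL-ENL preGM replicate 1, which is not part of the WT contrast, the WT change was 0.53 (edgeR adjusted p = 0.023). Eif4e3, an eIF4E relative, was lower in MLL-ENL preGM, with 35.7, 16.5 and 15.2 CPM, against 41.8, 38 and 41.5 CPM in MLL-ENL HSC, a log2 change of -0.85 (SE 0.30, edgeR adjusted p = 0.0317). Leaving out any MLL-ENL HSC library, or MLL-ENL preGM replicate 2 or 3, ended the call, and without the libraries that stood apart the change was -1.35.

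Of the 4 genes for eIF4E-binding proteins, none passed with MLL-ENL in the fit of all libraries, and in WT 2 were higher and 1 lower. Eif4ebp1 had 149, 71.1 and 106 CPM in WT preGM, against 33.6, 58.7 and 58.9 CPM in WT HSC, and its log2 change was 1.11 ± 0.34 (SE, edgeR adjusted p = 0.0162), lost without WT HSC replicate 1 or WT preGM replicate 1. In MLL-ENL cells it changed by -0.37 (edgeR adjusted p = 0.392). Without the libraries that stood apart Eif4ebp1 passed as lower in MLL-ENL preGM and as higher in WT preGM. Eif4ebp2 rose in WT preGM by 1.30 on the log2 scale (edgeR adjusted p = 0.0153), where replicate 2 held 23 CPM and the others 11.1 and 8.96 CPM, and it changed by 0.79 (edgeR adjusted p = 0.0998) without that library. Its call also ended without replicate 2 or 3 of WT HSC. Eif4ebp3 fell by 0.98 in WT (SE 0.25, edgeR adjusted p = 0.00563), but 67.34% of its exon bases overlapped another annotated gene, so its counts are uncertain.

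Eif5a had 2198, 2141 and 1926 CPM in MLL-ENL preGM, against 1058, 1123 and 1015 CPM in MLL-ENL HSC, and 2534, 1300 and 2283 CPM in WT preGM, against 860, 939 and 968 CPM in WT HSC. The cell types did not overlap in either genotype, and the log2 changes were 0.97 ± 0.29 (SE, edgeR adjusted p = 0.0134) and 1.14 ± 0.29 (SE, edgeR adjusted p = 0.00545). Leaving out replicate 1 or 3 of MLL-ENL HSC ended the MLL-ENL call. Its paralog Eif5a2 moved the other way in WT, with 1.82, 2.05 and 1.45 CPM in WT preGM, against 5.2, 3.76 and 2.89 CPM in WT HSC (log2 change -1.16, SE 0.42, edgeR adjusted p = 0.0369), a call that ended without WT HSC replicate 1 or 2, MLL-ENL preGM replicate 3 or WT preGM replicate 1 or 3. Eif6, which keeps the ribosomal subunits apart, was higher in MLL-ENL preGM by 1.06 (edgeR adjusted p = 0.00334) and changed by 0.64 in WT (edgeR adjusted p = 0.0528).

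Among the elongation factors Eef1a1, Eef1g, Eef1b2 and Eef2 did not pass in the fit of all libraries. Without MLL-ENL preGM replicate 1, Eef1b2 was higher in preGM by 0.81 with MLL-ENL (edgeR adjusted p = 0.0202) and 0.71 in WT (edgeR adjusted p = 0.0227). Eef1a1 had 6198, 6418 and 6303 CPM in MLL-ENL preGM, against 4415, 4622 and 4590 CPM in MLL-ENL HSC, and 5487, 2627 and 5993 CPM in WT preGM, against 5176, 4849 and 4495 CPM in WT HSC. Its changes were 0.47 and -0.04, and without the libraries that stood apart 0.49 (edgeR adjusted p = 0.000332) and 0.25 (edgeR adjusted p = 0.0277). Eef2 changed by 0.07 with MLL-ENL and 0.06 in WT, and without the libraries that stood apart by -0.42 (edgeR adjusted p = 0.00172) and 0.09. Eef1g had 2166, 3235 and 3202 CPM in MLL-ENL preGM, against 1422, 1489 and 1411 CPM in MLL-ENL HSC, and 2824, 768 and 2793 CPM in WT preGM, against 1771, 1751 and 1749 CPM in WT HSC. WT preGM replicate 2 alone lay below the HSC libraries, and without the libraries that stood apart Eef1g was higher in preGM in both genotypes, by 1.17 (edgeR adjusted p = 3.8e-08) and 0.68 (edgeR adjusted p = 7.01e-06). Eef1e1, a scaffold protein of the tRNA synthetase complex named after its likeness to eEF1 subunits, had 188, 366 and 336 CPM in MLL-ENL preGM, against 76.6, 68.2 and 76.1 CPM in MLL-ENL HSC, and 346, 283 and 353 CPM in WT preGM, against 112, 86.3 and 108 CPM in WT HSC. Both genotypes were without overlap, and the changes were 2.01 ± 0.28 (SE, edgeR adjusted p = 4.57e-05) and 1.68 ± 0.27 (SE, edgeR adjusted p = 0.000182). Eef1d, the eEF1B delta subunit, rose by 1.69 and 1.33 on the log2 scale. Eef2k, the kinase that inhibits eEF2, was lower in preGM, with 34.1, 38.1 and 35.4 CPM in WT preGM, against 65.4, 66.7 and 70.5 CPM in WT HSC (log2 change -0.91, SE 0.24, edgeR adjusted p = 0.00758). In MLL-ENL preGM it had 70.7, 38.2 and 40.7 CPM, against 81.9, 71.8 and 81.7 CPM in MLL-ENL HSC. That change of -0.65 (edgeR adjusted p = 0.0396) was lost without any 1 of 10 libraries, all but MLL-ENL preGM replicate 1 and WT preGM replicate 2, and was -0.98 without both of those.

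Of the 5 methyltransferases of elongation factors, Eef1akmt1, Eef1akmt3 and Eef1akmt4 were higher in preGM in both genotypes. Eef1akmt3, which methylates a lysine of eEF1A, showed the largest change of all members, from a low level. It had 4.93, 8.58 and 9.44 CPM in MLL-ENL preGM, against 1.2, 1.55 and 2.19 CPM in MLL-ENL HSC, and 9.97, 7.36 and 11.1 CPM in WT preGM, against 1.84, 2.94 and 1.78 CPM in WT HSC. The log2 changes were 2.21 ± 0.37 (SE, edgeR adjusted p = 0.000229) and 2.11 ± 0.37 (SE, edgeR adjusted p = 0.000331). Eef1akmt4 changed by 1.85 and 1.79, and 34.24% of the bases of its exons also belong to a second annotated gene, so its counts are uncertain. Eef1akmt1 changed by 1.08 and 1.31, and its MLL-ENL call ended without replicate 2 or 3 of either MLL-ENL group.

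**Figure D3:**
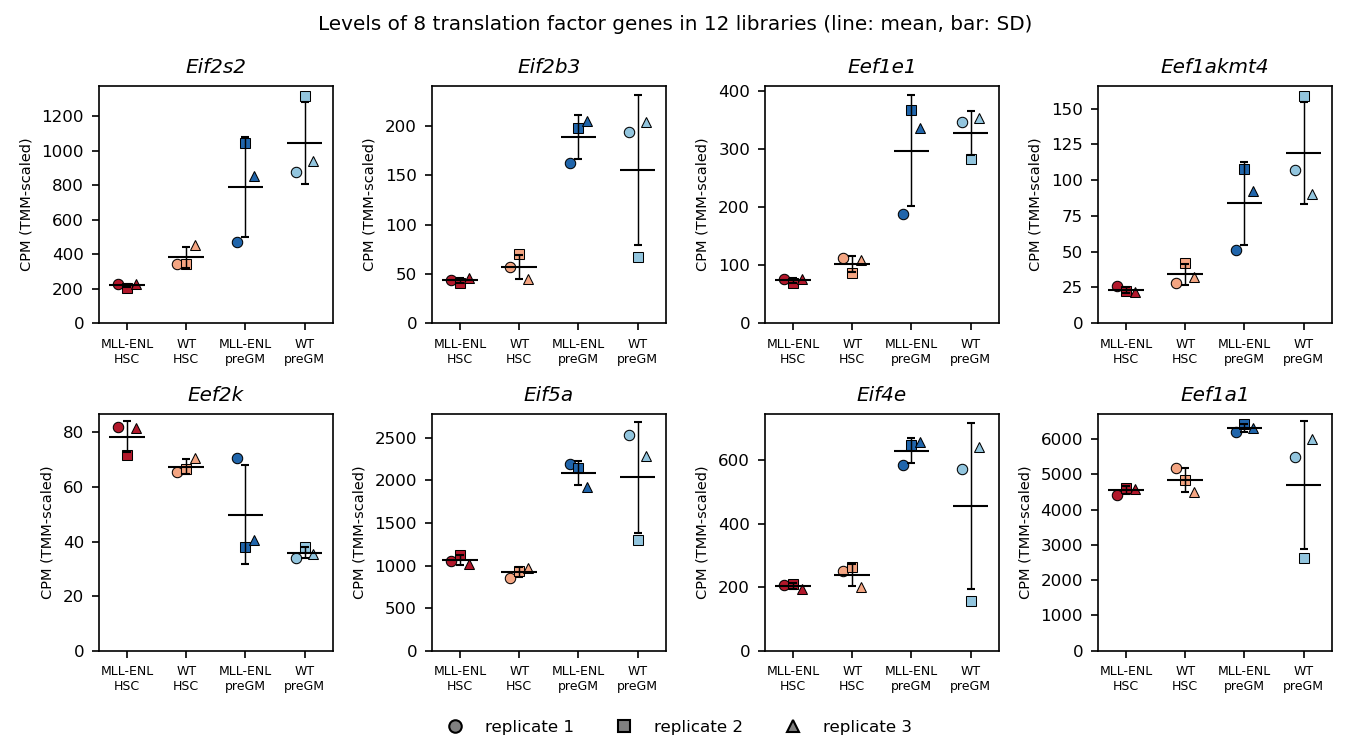
Points give the level of 8 members in each library in TMM-scaled CPM, with the group mean (line) and SD (bar), n = 3 per group. Eif2s2, Eef1e1 and Eif5a separate the cell types in both genotypes, Eef2k runs the other way, and WT preGM replicate 2 lies low for Eif2b3, Eif4e and Eef1a1.

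Of the members called, 13 of 36 with MLL-ENL and 8 of 30 in WT passed in all 20 alternative settings, and Eif2s2, Eif1ad, Eef1d, Eef1e1, Eef1akmt3 and Eef1akmt4 were on both lists. A further 13 and 10 members lost the call only when library size replaced TMM. The same shares over all called genes were not computed. With library size, higher calls among all genes fell from 20.4 to 7.75% with MLL-ENL and from 18.4 to 7.57% in WT. WT preGM replicate 2 held less than 0.5 times the level of both other WT preGM libraries for 15 of the 64 members, against 12.5% of all genes tested, and more than 2 times for 1, against 5.48%. The 15 included Eif2b1, Eif2b2, Eif2b3 and Eif2b4, Eif3d, Eif3e, Eif3h, Eif3l and Eif3m, and Eef1a1, Eef1g and Eif4e. MLL-ENL preGM replicate 1 held more than 2 times the level of both other libraries of its group for Eef2, Eif2s3x, Eif4b, Eif4e3 and Eif4g2, and less than 0.5 times for Eef1akmt1, Eef1b2, Eif3f and Eif3k. These 5 and 4 of 64 members stand beside 12.4% and 9.99% of all genes.

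A perfect E-box, CACGTG, the site that MYC and related proteins are known to bind, lay in the RefSeq promoter window (250 bases before to 50 after a gene start, build GRCm38.p6) of 13 of 52 members with an entry, 25%. Over all 27025 genes in that table the share was 8.09%. A gene with several annotated starts has a window for each and was counted once if any held the motif; per window the shares were 22.4% of 67 for the members and 7.15% of all. The motif reads the same on both strands. Of the 13, 8 passed between the cell types in at least 1 genotype, 6 of them higher in preGM (Eif4e, Eif4a1, Eif5a, Eif3a, Eif3k and Eef1akmt4) and Eef2k and Eif5a2 lower, which is no larger a share than the 44 of 64 members (68.8%) that did so in all, against 53.9% of all genes. A CRE-like TGACGTCA was in 1 member, Eef2 (1.92%, against 2.03% of all genes), and the ATF4-type TGATGNAA, searched on both strands, in Eef2k and Eif2s3x (3.85%, against 4.51%). The paralogs Eif5a and Eif5a2 differed in direction in WT preGM and both hold the E-box, as do Eif4a1, which was higher, and Eef2k, which was lower. The 250 bases before their starts are shown for that contrast, 5′ to 3′ on the gene's strand, with the E-box in capitals, at chr11:69921387-69921636 (Eif5a, minus strand), chr3:28781027-28781276 (Eif5a2, plus), chr11:69672424-69672673 (Eif4a1, minus) and chr7:120842581-120842830 (Eef2k, plus).
Eif5a: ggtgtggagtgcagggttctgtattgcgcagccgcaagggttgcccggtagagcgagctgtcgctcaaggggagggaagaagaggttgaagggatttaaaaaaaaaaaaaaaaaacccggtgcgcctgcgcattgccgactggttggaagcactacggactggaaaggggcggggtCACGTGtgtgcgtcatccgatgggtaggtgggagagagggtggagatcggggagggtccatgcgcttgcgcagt
Eif5a2: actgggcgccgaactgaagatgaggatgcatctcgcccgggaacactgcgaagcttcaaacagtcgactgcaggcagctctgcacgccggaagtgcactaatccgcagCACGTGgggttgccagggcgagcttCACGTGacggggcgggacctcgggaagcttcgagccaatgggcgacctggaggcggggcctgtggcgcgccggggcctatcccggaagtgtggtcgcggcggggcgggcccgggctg
Eif4a1: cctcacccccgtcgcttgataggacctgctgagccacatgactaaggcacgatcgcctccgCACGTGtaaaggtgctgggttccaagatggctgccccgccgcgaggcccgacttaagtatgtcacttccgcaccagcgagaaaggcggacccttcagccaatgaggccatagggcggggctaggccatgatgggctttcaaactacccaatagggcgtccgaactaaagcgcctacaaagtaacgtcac
Eef2k: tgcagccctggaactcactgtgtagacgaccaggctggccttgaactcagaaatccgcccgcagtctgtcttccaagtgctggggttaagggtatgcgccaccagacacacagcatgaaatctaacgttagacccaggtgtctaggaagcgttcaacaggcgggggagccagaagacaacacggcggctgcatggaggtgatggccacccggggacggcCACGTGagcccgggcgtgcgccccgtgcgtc
Eif5a has 6 windows, 3 of them with the motif, and Eef2k has 3, 1 of them with it, and 1 window is shown for each gene. In the windows shown the motif starts 74 bases before the start of Eif5a, 142 and 117 bases before that of Eif5a2, 189 before that of Eif4a1 and 31 before that of Eef2k. A match is a description of these letters and says nothing of binding in these cells.

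The comparison of MLL-ENL with WT within HSC asked whether these genes differed between the groups in stem cells. The strain and the fusion differ together, here and in the MLL-ENL comparisons below, and cannot be told apart. No member passed edgeR's quasi-likelihood test fitted over all 12 libraries, where 4.12% of all genes passed, 3.19% higher and 0.929% lower. At an unadjusted p under 0.05, 2 members were higher and 8 lower, beside 11.3% and 7.09% of all genes. DESeq2 called 1 higher (Eif4e3) and 3 lower (Eif1ax, Eif3b and Eif5b), beside 5.63% and 2.91% of all genes, and limma on log2(RPKM + 0.1) called none, beside 6.08%. The changes leaned one way: 50 of 64 members had a negative and 14 a positive log2 change, with a median of -0.22 beside 0.02 over all genes. The libraries of the 2 groups did not overlap for 26 members lower with MLL-ENL, against 17% of all genes tested, and for 8 members higher, against 17.8%.

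The number of calls depended on which libraries were in the fit. Without MLL-ENL preGM replicate 1, which is not part of the contrast, 2 members were higher and 5 lower, where 5.06% of all genes were higher and 2.97% lower. Without WT preGM replicate 2 no member was higher and 1 lower, where 4.22% and 1.87% of all genes were. Without both, 3 were higher and 21 lower, while 21.3% of all genes passed, 10.2% higher and 11.1% lower, and with only the 6 HSC libraries 3 were higher and 15 lower, with 17.7% of all genes passing. The log2 changes themselves moved by at most a few hundredths. The 3 that were higher were Eef2, Eif4e3 and Eif4ebp1 in both of these fits.

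Eef2 had 908, 932 and 860 CPM in MLL-ENL HSC, against 561, 584 and 599 CPM in WT HSC, with no overlap. Its log2 change was 0.63 ± 0.31 (SE, edgeR adjusted p = 0.288), and the adjusted p was 0.0311 without MLL-ENL preGM replicate 1 and 0.000167 without both libraries. Eif4e3 had 41.8, 38 and 41.5 CPM in MLL-ENL HSC, against 18.4, 23 and 19.9 CPM in WT HSC. Its change of 0.98 ± 0.30 had the lowest adjusted p of the members in that contrast (SE, edgeR adjusted p = 0.0784), 0.00719 without MLL-ENL preGM replicate 1. Eif4ebp1 had 80.4, 91.7 and 87.8 CPM in MLL-ENL HSC, against 33.6, 58.7 and 58.9 CPM in WT HSC, a change of 0.78 ± 0.33 (SE, edgeR adjusted p = 0.22). The length-corrected ratio of Eif4ebp1 to Eif4e within each library was 1.13, 1.28 and 1.33 in MLL-ENL HSC, against 0.394, 0.652 and 0.861 in WT HSC.

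On the lower side, Eif2s2 had the largest change in HSC, -0.80 ± 0.31 (SE, edgeR adjusted p = 0.167, 0.0327 without MLL-ENL preGM replicate 1), with 225, 206 and 224 CPM in MLL-ENL HSC, against 345, 345 and 453 CPM in WT HSC. Eif1ax had 219, 212 and 195 CPM in MLL-ENL HSC, against 348, 301 and 353 CPM in WT HSC, and Eif3b 86.6, 93.8 and 92.8 CPM, against 134, 142 and 129 CPM. Neither overlapped between the groups, and their log2 changes were -0.68 (edgeR adjusted p = 0.178) and -0.57 (edgeR adjusted p = 0.16). Eef1d changed by -0.71 and Eif3a by -0.66. Of the 13 tested eIF3 genes, 12 had a negative change in HSC (median -0.22), as did 11 of the 12 start-site and ternary complex genes (median -0.28), none of them past the threshold.

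Some markers of other cells moved with the same contrast. The summed megakaryocyte and erythroid markers were at 80.5 to 123 CPM in MLL-ENL HSC and 490 to 617 CPM in WT HSC, mostly from Pf4 at 47 and 480 CPM. Itga2b (37 and 40.9 CPM on average) and Gata1 (13.9 and 13.5 CPM) hardly differed. Klf1 ran the other way, at 1.46 and 0.521 CPM, and Hbb-bs was at 2.49 and 4.48 CPM. Of the lymphoid markers Dntt was at 0 in all MLL-ENL HSC libraries and 2.31 to 4.08 CPM in WT HSC, while Cd3e was at 0 in both groups. The summed stromal and endothelial markers were at 27.6 to 29.8 CPM in MLL-ENL HSC and 14.2 to 17 CPM in WT HSC. Most of this came from Pecam1, at 21.9 and 14.2 CPM on average, and Col1a2 was also higher, at 6.75 and 0.99 CPM. The endothelial marker Cdh5 ran the other way, at 0.0354 and 0.349 CPM on average. Intron counts per 100 gene counts were 4.81 to 5.98 in MLL-ENL HSC and 3.73 to 4.11 in WT HSC. Their part in the changes of the members was not tested, and in these bulk libraries fewer cells of a type and less RNA per cell cannot be told apart.

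**Figure D4:**
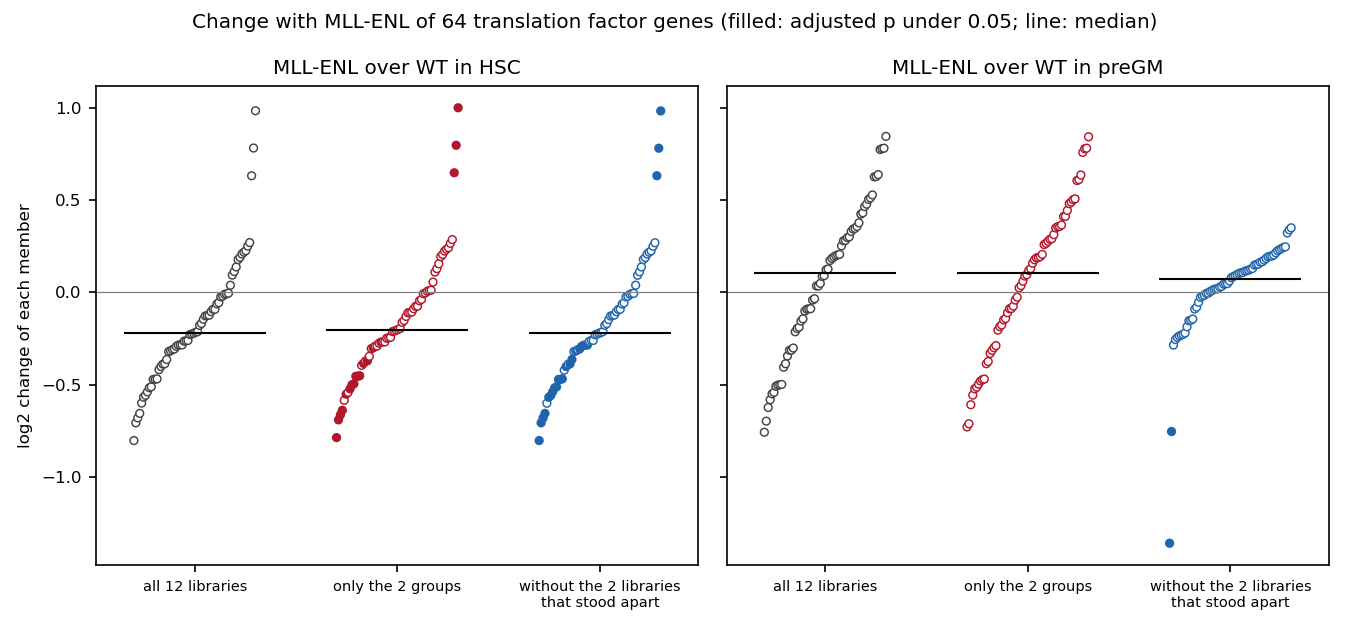
Points give the log2 change, MLL-ENL over WT, of the members in HSC (left) and preGM (right), each column sorted by size, in the fit of all 12 libraries, of only the 2 groups compared and without the 2 libraries that stood apart. Filled points passed an adjusted p of 0.05, and lines mark medians. In HSC the values hardly move between columns while the number that passed rises, and in preGM the spread narrows without the 2 libraries.

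Within preGM, no member passed with MLL-ENL either, where 6.77% of all genes did, 3.7% higher and 3.07% lower. At an unadjusted p under 0.05, 3 members were higher and 1 lower, beside 13.6% and 9.8% of all genes. DESeq2 called 1 higher (Eif4b), beside 6.51% of all genes, and limma none, beside 5.84% in either direction. The median change was 0.11 beside 0.08 over all genes, with 37 positive and 27 negative. Groups did not overlap for 10 members higher, against 15.1% of all genes tested, and 6 lower, against 12.8%. Eif4b, a cofactor of the eIF4A helicase, had 441, 207 and 218 CPM in MLL-ENL preGM, against 162, 149 and 171 CPM in WT preGM, the highest value being that of MLL-ENL preGM replicate 1. Its log2 change was 0.84 ± 0.28 (SE, edgeR adjusted p = 0.0885), and it passed without MLL-ENL preGM replicate 2 at 1.03 (edgeR adjusted p = 0.0409), as did Eif2s3x at 1.00 (edgeR adjusted p = 0.0453). In that fit 5.57% of all genes were higher. Without the libraries that stood apart no member was higher, and Eif4ebp1 (log2 change -1.36, edgeR adjusted p = 0.00242) and Eif4e3 (-0.75, edgeR adjusted p = 0.0172) were lower. Of all genes, 3.52% were higher and 3.62% lower there. The summed mast cell and basophil markers were at 130 to 258 CPM in MLL-ENL preGM and 1247 to 1976 CPM in WT preGM. This came from Mcpt8 (68.8 and 1212 CPM on average) and Cpa3 (119 and 473 CPM), while Fcer1a was at 20.5 and 22.5 CPM. Of the preGM and myeloid markers Elane, Prtn3, Ctsg, Cebpe and Ms4a3 were lower on average in MLL-ENL preGM, Elane at 2273 and 11923 CPM. Mpo ran the other way, at 7955 and 5251 CPM. The HSC markers other than Ly6a were higher on average in MLL-ENL preGM, Meis1 at 99.5 and 9.4 CPM. Ly6a was at 6.59 and 23.1 CPM. The part of these markers was not tested.

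The test of whether the MLL-ENL response differed between cell types, preGM minus HSC, called no member, where 3.13% of all genes passed, 1.08% higher and 2.06% lower. At an unadjusted p under 0.05, 2 were higher and 2 lower, beside 7.78% and 8.45% of all genes. DESeq2 called 1 lower (Eif4ebp1), beside 4.31% of all genes, and limma none, beside 3.99% in either direction. The largest difference was that of Eif4ebp1, at -1.48 ± 0.47 (SE, edgeR adjusted p = 0.112), since its MLL-ENL change was 0.78 in HSC and -0.70 in preGM. It had 101, 54.5 and 45 CPM in MLL-ENL preGM, against 149, 71.1 and 106 CPM in WT preGM, groups that overlapped through MLL-ENL preGM replicate 1 and WT preGM replicate 2. Without MLL-ENL preGM replicate 1 the difference was -1.91 (edgeR adjusted p = 0.0189) and without both libraries that stood apart -2.14 (edgeR adjusted p = 0.000541). Eif4e3 followed, at -1.09 (edgeR adjusted p = 0.197) and -1.59 without MLL-ENL preGM replicate 1 (edgeR adjusted p = 0.00618). Without both libraries 10 members differed in the positive and 4 in the negative direction, with 12.2% of all genes passing.

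**Figure D5:**
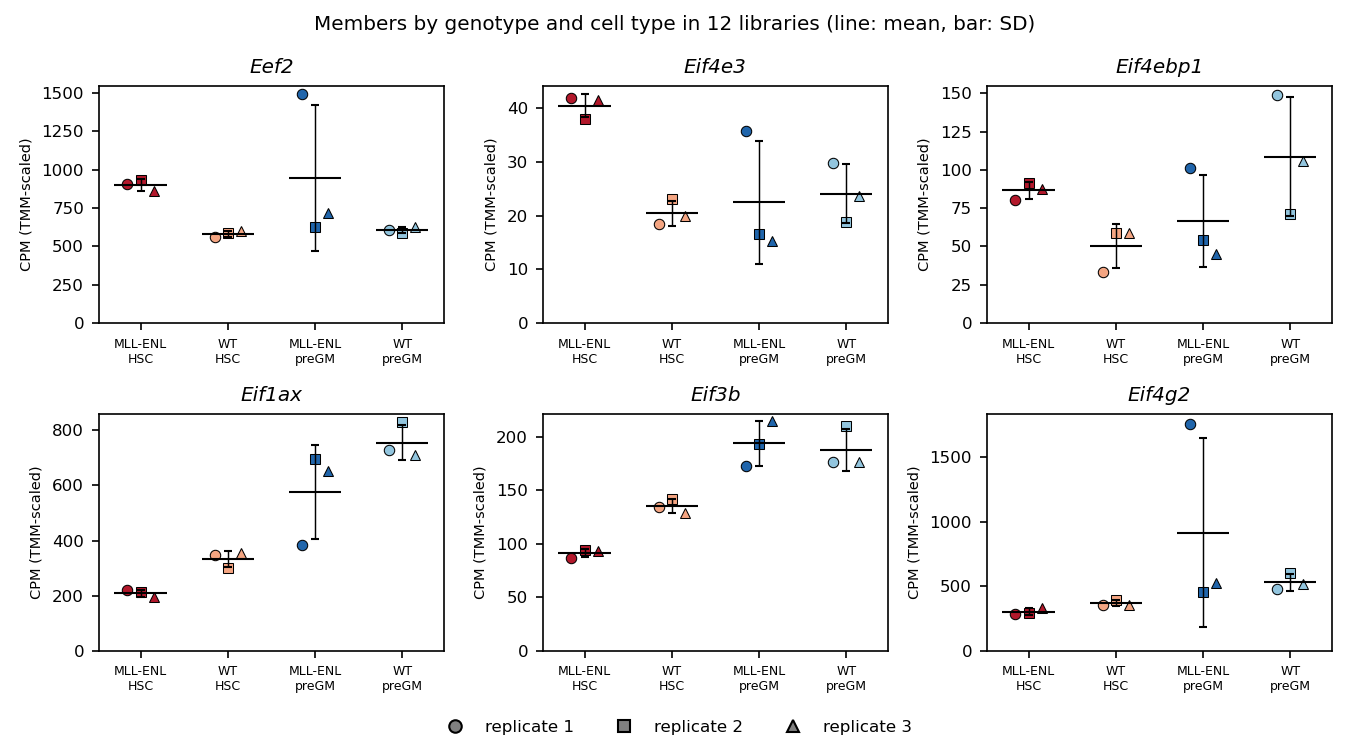
Points give the level of 6 members in each library in TMM-scaled CPM, with the group mean (line) and SD (bar), n = 3 per group. Eef2, Eif4e3 and Eif4ebp1 lie higher in MLL-ENL HSC than in WT HSC without overlap, Eif1ax and Eif3b lie lower, and MLL-ENL preGM replicate 1 stands out for Eef2 and Eif4g2, at 1493 and 1760 CPM.

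The neighbouring steps of translation were read from lists of other genes. Their counts stand beside the shares of all genes given above, 20.4% higher and 21.1% lower in preGM with MLL-ENL and 18.4% higher and 20.1% lower in WT. Of 20 cytosolic tRNA synthetase genes, which charge tRNAs with amino acids, 17 were higher in preGM with MLL-ENL and 9 in WT, and none was lower (median log2 changes 1.62 and 0.83). Hars was higher in preGM by 1.69 on the log2 scale with MLL-ENL (SE 0.33, edgeR adjusted p = 0.000973) and by 1.19 in WT (SE 0.33, edgeR adjusted p = 0.01), the WT call ending without WT preGM replicate 3. Yars was the 1 synthetase past the threshold between genotypes, higher in MLL-ENL preGM at 149 ± 67.4 CPM, against 70.9 ± 26.2 CPM in WT preGM (SD, n = 3 each, log2 change 1.08, edgeR adjusted p = 0.0461). That call ended without any 1 of 9 libraries, all but MLL-ENL preGM replicates 2 and 3 and WT preGM replicate 3. Of 6 genes for hypusine, the modified residue of eIF5A, and for the polyamines it is made from, 4 were higher in preGM in each genotype. Srm, spermidine synthase, was higher in preGM by 2.32 with MLL-ENL and 1.67 in WT (edgeR adjusted p = 4.36e-05 and 0.000588). It was lower in MLL-ENL HSC, at 33 ± 3.66 CPM, than in WT HSC, at 84.4 ± 11 CPM (SD, n = 3 each, log2 change -1.35, edgeR adjusted p = 0.0213), a call that ended without any 1 of the HSC libraries other than WT HSC replicate 2.

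Of 8 termination and recycling genes, 6 were higher in preGM with MLL-ENL and 4 in WT, with Etf1, the release factor, at 1.36 and 0.86 on the log2 scale. The lists, those above included, are short and were chosen with earlier results of these data known. No list was tested as a set, so whether any count differs from those shares was not tested. Of 7 genes for diphthamide, the modified residue of eEF2, 4 and 3 were higher, and of 9 mitochondrial translation factors 4 and 2. Of 14 partners of the cap and the poly(A) tail, 3 were higher with MLL-ENL, and in WT none was higher and 2 were lower, Pdcd4, an inhibitor of eIF4A, and Paip2, an inhibitor of poly(A)-binding protein. Of 7 tested TOR kinase genes, Tsc1 fell in both genotypes and Tsc2 in WT, both of them inhibitors of TOR. Single libraries ended the WT calls of Paip2 (any of 10, all but MLL-ENL preGM replicates 1 and 2), Tsc1 (WT preGM replicate 1) and Tsc2 (replicates 1 and 3 of both WT groups). Of 6 genes that control eIF2 phosphorylation, 1 was higher and 1 lower with MLL-ENL, and 2 were higher and 2 lower in WT. Ppp1r15a (GADD34), which directs a phosphatase to eIF2 alpha, was lower in preGM by log2 changes of -1.29 and -1.18, and within HSC it stood at 24.8 ± 0.704 CPM in MLL-ENL HSC and 12.5 ± 3.93 CPM in WT HSC (SD, n = 3 each, log2 change 0.99, edgeR adjusted p = 0.0479). The HSC call ended without any 1 of 9 libraries, all but WT HSC replicate 2, MLL-ENL preGM replicate 1 and WT preGM replicate 2. Impact, an inhibitor of GCN2 activation, was higher in MLL-ENL preGM, at 35.9 ± 26.2 CPM, than in WT preGM, at 9.4 ± 0.505 CPM (SD, n = 3 each, log2 change 1.93, edgeR adjusted p = 0.00379). Without MLL-ENL preGM replicate 1 the change was 1.14 (edgeR adjusted p = 0.00175).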

How the data were processed

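Each of the 12 deposited files lists exons, introns and transcripts with a raw read count and an RPKM value (reads scaled by length and library size) per feature, per the file headers. The authors did not normalize the counts, and computed RPKM from them before deposit. Per the submitters' processing notes the tools were Bowtie2 2.1.0, TopHat2 2.0.8, edgeR and HTSeq, with no roles stated. No source used here names a genome build or the use of strand, so overlapping genes cannot be told apart.

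Of 93615 transcripts, 95.78% matched GENCODE M21 by identifier, and 85.93% of those had identical exons. Gene counts are sums of deposited exon counts over non-overlapping exons, covering 99.39% of exon bases. edgeR 4.0.16 (TMM, robust quasi-likelihood, R 4.3.3) was fitted to all 12 libraries with 4 group means and filterByExpr (minimum count 10, total 15), after testing on simulated data. SE is the log2 change divided by the square root of F. A member was called at an adjusted p under 0.05 over 15711 genes. Alternatives were DESeq2 1.42.0, limma 3.58.1 on log2(RPKM + 0.1), library size only, no filter, only the groups compared, the longest transcript, a replicate block, each library left out, and both libraries that stood apart left out. Figures used matplotlib 3.10.9.

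The members, lists and named genes were chosen with earlier results of these data known. Named were a fixed list of core factors, up to 8 called members with the largest changes each way, and the 5 most abundant; others are named where a value bears on a count.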

Additional observations from a re-analysis of the deposited data

Results flagged for a closer look

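Eif5al3-ps, a processed pseudogene of Eif5a on chromosome 5 (90132229 to 90132675) that the choice of members left out, held a signal with the MLL-ENL strain that no comparison above used. It had 17.3, 20.1 and 18.4 CPM in MLL-ENL HSC, against 0.168, 0.362 and 0.492 CPM in WT HSC, and 42.8, 36.9 and 36.5 CPM in MLL-ENL preGM, against 0.836, 0.372 and 0.285 CPM in WT preGM. The log2 changes were 5.76 (edgeR adjusted p = 3.39e-06) in HSC and 6.25 (edgeR adjusted p = 6.49e-08) in preGM. Its parent gene Eif5a changed by 0.21 and 0.03, the strain and the fusion differ together between the groups and cannot be told apart, and reads of near-identical copies are uncertain where the counting could split them.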

How the results depend on the processing

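With library size in place of TMM, 12 members were higher and 9 lower in MLL-ENL preGM than in MLL-ENL HSC, 6 higher and 15 lower in WT preGM than in WT HSC, and 1 higher with MLL-ENL in preGM. The shares of all genes between cell types are given above, and 5.63% were higher with MLL-ENL in preGM. The sign of 22 of 64 members turned in WT, among them Eif5, which had passed (-0.062), and Eif2b5 (-0.64), Eif4h (-0.69) and Eif5b (-0.61), which were then called lower. Without both libraries that stood apart, called members (higher, then lower) were 3 and 21 for MLL-ENL in HSC, 0 and 2 for MLL-ENL in preGM, 10 and 4 for the difference of the responses, 44 and 6 between cell types with MLL-ENL, and 40 and 8 in WT. In the same order, the shares of all genes were 10.2 and 11.1%, 3.52 and 3.62%, 6.73 and 5.45%, 25.1 and 26.5%, and 25.6 and 25.3%. Among members that passed there, the sign of the difference of the responses turned for Eef2 (-0.51), Eif3f (0.70) and Eif3k (0.64). That of the cell-type change turned for Eef2 with MLL-ENL (-0.42) and Eef1a1 in WT (0.25). Whether they passed or not, the sign of the cell-type change turned for 2 members with MLL-ENL and 4 in WT. With only the groups compared, 3 were higher and 15 lower for MLL-ENL in HSC, beside 8.99 and 8.69% of all genes. Between cell types with MLL-ENL, 35 were higher and 1 lower in that setting, beside 20.2 and 23.6%. DESeq2 called 1 higher and 3 lower for MLL-ENL in HSC, 1 higher in preGM and 1 lower for the difference. Without the filter 2, and with the longest transcript 3, were lower in WT preGM, beside 12.7 and 19.6% of all genes. The replicate block gave 0 calls for MLL-ENL in either cell type and for the difference, beside 3.19, 5.5 and 2.57% of all genes. Between cell types it gave 31 higher and 3 lower with MLL-ENL, beside 18 and 20.3%. In WT it gave 22 higher and 2 lower, beside 16.7 and 18.5%. In their deviations from group means, same-numbered libraries correlated by -0.104 to 0.1 and others by -0.136 to 0.137. With 3 libraries per group this does not settle whether the numbers pair them. Leaving out 1 library at a time gave 0 to 2 higher and 0 to 5 lower for MLL-ENL in HSC, 0 to 2 higher and 0 lower in preGM, 0 higher and 0 to 2 lower for the difference, 26 to 39 higher and 1 to 4 lower between cell types with MLL-ENL, and 18 to 32 higher and 2 to 7 lower in WT. In the same order, 1.89 to 8.03%, 3.54 to 8.41%, 1.87 to 4.35%, 30.4 to 45.2% and 28.6 to 44.5% of all genes passed. The cause of these shifts was not tested. With 3 libraries per group and a common biological coefficient of variation of 0.321, small changes cannot be told from no change.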
